A study of Mus musculus with 10 samples.

Results

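The 7 haemoglobin genes described here are the embryonic members Hbb-y, Hbb-bh1 and Hba-x and the adult members Hba-a1, Hba-a2, Hbb-bt and Hbb-bs, picked by name out of the 36066 genes of a mouse RNA-seq table after earlier results had shown them among the germ cell libraries. Their levels chose them, so they are given as a description without a test. The study asked how primordial germ cell-like cells (PGCLCs) made from parthenogenetic embryonic stem cells (pESCs) compare with those made from ordinary stem cells. The 10 libraries fall into 5 groups of 2: ESCs, female stem cells from fertilized embryos; pESCs, stem cells from activated oocytes that carry maternal chromosomes alone; ESC-PGCLCs and pESC-PGCLCs, made from these by 2 days as epiblast-like cells and 4 days with BMP4 (500 ng/ml), SCF (100 ng/ml), EGF (50 ng/ml) and LIF (1000 IU/ml); and PGCs, germ cells taken from embryos. All were labelled C57BL6, and the stem cell lines carried an Actin-GFP transgene. PGCLCs were sorted for SSEA1 and CD61, and PGCs for SSEA1 with or without CD61, an integrin that platelets also carry. The labels give no embryonic day for the PGC libraries, whereas the paper describes PGCs of more than a single embryonic age, so the stage behind the PGC values is not known here. Also, how many lines or embryos stand behind a library is not given in the sources used here.

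Haemoglobin is the oxygen carrier of red cells and is built from alpha-like and beta-like globin chains, each holding a haem. Mouse genes for the beta-like chains lie in a cluster on chromosome 7 and those for the alpha-like chains in a cluster on chromosome 11. In both clusters the embryonic members lie upstream of the adult members. The first red cells, made in the yolk sac, use mainly the embryonic genes Hbb-y, Hbb-bh1 and Hba-x, and red cells made later in the foetal liver and bone marrow use the adult genes, although adult alpha-globin is already made in yolk sac red cells. Red cell precursors also make the factors GATA1, KLF1 and TAL1, the haem enzyme ALAS2 and the membrane protein band 3.

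In GRCm38 (mm10) with GENCODE M21, Hbb-y (ENSMUSG00000052187.4) lies at chr7:103851749-103853216 on the minus strand. Hbb-bh1 (ENSMUSG00000052217.6) starts 10052 bases downstream of it, Hbb-bs (ENSMUSG00000052305.6) 25120 and Hbb-bt (ENSMUSG00000073940.3) 39220. Hba-x (ENSMUSG00000055609.8) lies at chr11:32276400-32278116 on the plus strand, with Hba-a1 (ENSMUSG00000069919.7) 7111 bases and Hba-a2 (ENSMUSG00000069917.7) 20089 bases further on. None of the 7 overlapped another annotated gene. The embryonic members shared no 150-base stretch with any other gene. Of the stretches of Hba-a1, 57.0% occurred in Hba-a2, and 73.1% of those of Hba-a2 occurred in Hba-a1. Hbb-bt and Hbb-bs shared 50.7% and 45.6% of their stretches with each other. How reads that fit both copies were counted is not given in the sources used here, so the levels of the adult members, the split within each adult pair and their order against the embryonic members are uncertain.

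Sequence before the start of 4 members is printed to show where a GATA motif lies in the promoters of the most abundant embryonic and adult members. It comes from RefSeq (GRCm38.p6), where 6 of the 7 members had an entry, all but Hbb-bh1. Each stretch begins 250 bases before the RefSeq start and ends where GENCODE, which starts these genes further upstream, annotates a transcript, after 241 bases in Hbb-y, 50 in Hba-x, 89 in Hba-a1 and 82 in Hbb-bs. Capitals mark matches on either strand. The GATA motif was spelled AGATAA with AGATAG as another form, and TGATAA with TGATAG as another form. The others were CCACACCC, then CCAAT, and the TATA motif, spelled TATAAA with CATAAA as another form.
Hbb-y, chr7:103853217-103853457, minus strand: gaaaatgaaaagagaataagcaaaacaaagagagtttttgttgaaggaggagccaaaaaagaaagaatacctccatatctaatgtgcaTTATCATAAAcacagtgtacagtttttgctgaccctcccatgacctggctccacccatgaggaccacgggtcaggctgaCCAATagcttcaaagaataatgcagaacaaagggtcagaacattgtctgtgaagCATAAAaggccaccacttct
Hba-x, chr11:32276350-32276399, plus strand: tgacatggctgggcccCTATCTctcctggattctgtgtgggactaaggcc
Hba-a1, chr11:32283422-32283510, plus strand: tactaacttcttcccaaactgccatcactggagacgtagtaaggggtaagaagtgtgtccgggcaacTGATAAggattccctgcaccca
Hbb-bs, chr7:103828097-103828178, minus strand: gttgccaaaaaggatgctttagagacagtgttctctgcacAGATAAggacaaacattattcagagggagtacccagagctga

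The search itself covered windows of 300 bases, the 250 before the RefSeq start and 50 after it. A GATA motif was found in 5 of the 6 members, all but Hbb-bt, and in 29.8% of all 32851 RefSeq windows of that length. It began 162 bases before the start in Hbb-y, 234 and 108 in Hba-x, 183 in Hba-a1, 186 in Hba-a2 and 210 in Hbb-bs. CCACACCC was found in Hbb-bs alone, 93 bases before the start, and in 3.56% of all windows. CCAAT was found in 5 of the 6, all but Hba-x, and in 37.4% of all windows, at 76 to 91 bases before the start in Hbb-y, Hba-a1, Hba-a2 and Hbb-bs and at 80, 75 and 36 in Hbb-bt. The TATA motif was found in 3 of the 6 (Hbb-y, Hba-x and Hbb-bt) and in 22.8% of all windows. It began 28 or 29 bases before the start in each of these, and a further match in Hbb-y, at 158, overlapped its GATA motif. The Hba-a1 and Hba-a2 windows were the same at 297 of 297 positions once shifted by 3 bases. These matches describe the letters in the windows and carry no measure of a factor's binding.

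The authors deposited TPM, which divides reads by gene length and sets every library to a sum of 1000000. Whole reads were recovered from TPM and exon length, with totals between 6779837 (ESC-PGCLC replicate 2) and 18572894 (ESC replicate 2), and both ESC-PGCLC libraries were the shallowest. All 7 members passed the low-value filter of 0.1 TPM in 2 libraries. For other genes, differences are in log2(TPM + 1) with the standard error from limma, and a gene was called at a Benjamini-Hochberg adjusted p under 0.05 over all 27259 genes with a change of at least 2-fold. A two-sided exact permutation test of 2 against 2 cannot go below p = 0.333, so the calls rest on limma's variance model. Marker sums set the stem cells apart from the germ cells. Summed TPM of 12 germ cell genes was 407 to 931 in stem cells and 5486 to 7914 in PGCLCs and PGCs, where Dppa3 and Dazl led. The sum of 10 pluripotency genes, led by Dppa5a, was 23286 to 29513 in stem cells and 2429 to 5783 in the germ cells. These sums do not check PGCLCs against PGCs, the stage of either, or the ESC against the pESC origin.

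The haemoglobin genes were near the limit of detection in stem cells and abundant in PGCLCs and PGCs. The 7 members together took 15 and 18 reads in the ESC libraries, 0 and 26 in the pESC libraries, 1657 and 1608 in ESC-PGCLCs, 21725 and 20604 in pESC-PGCLCs and 10130 and 12932 in PGCs. Their summed TPM was 2.13 ± 0.164 in ESCs, 2.00 ± 2.83 in pESCs, 527 ± 49.4 in ESC-PGCLCs, 3169 ± 379 in pESC-PGCLCs and 2094 ± 150 in PGCs (mean ± SD, n = 2 each). The groups of germ cells did not overlap one another or the stem cells, and the order was stem cells, ESC-PGCLCs, PGCs, pESC-PGCLCs. All 7 members lay higher in both ESC-PGCLC libraries than in both ESC libraries, as 38.4% of all tested genes did, and in both pESC-PGCLC libraries than in both pESC libraries, as 50% did. In bulk samples such as these, fewer cells that hold globin RNA and less globin RNA per cell cannot be told apart. Hbb-y alone ranked between 89 and 431 among all genes of a germ cell library by TPM, and the 7 members made up 0.0492% to 0.344% of all TPM there.

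Among the embryonic members, Hbb-y, the first beta-like gene of the cluster, was the most abundant by TPM in all 6 germ cell libraries. Its TPM was 1.03 and 0.930 in ESCs, 0 and 1.64 in pESCs, 300.2 and 353 in ESC-PGCLCs, 1664 and 1274 in pESC-PGCLCs and 1153 and 1113 in PGCs. The 3 germ cell groups did not overlap, with ESC-PGCLCs lowest and pESC-PGCLCs highest.

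Hba-x, the embryonic alpha-like gene (zeta-globin), was at 0 to 0.628 TPM in stem cells, 49.5 and 51.9 in ESC-PGCLCs, 636 and 639.9 in pESC-PGCLCs and 257 and 258 in PGCs. Within each germ cell group its replicates were the closest of the 7, and the groups lay far apart. Hbb-bh1, the other embryonic beta-like gene, was lower. It had 1 read in the 4 stem cell libraries together, and its TPM was 5.49 and 6.41 in ESC-PGCLCs, 40.2 and 32.4 in pESC-PGCLCs and 52.9 and 27.6 in PGCs. PGC and pESC-PGCLC libraries overlapped for this gene, and both lay above ESC-PGCLCs.

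Among the adult members, Hba-a1, which encodes adult alpha-globin, was second to Hbb-y by TPM in all 6 germ cell libraries. Per stretch shared with no other gene, an alternative chosen after seeing the data, it lay above Hbb-y in 3 of the 6, which were both pESC-PGCLC libraries and PGC replicate 1. Its TPM was 0 to 1.70 in stem cells, 97.9 and 104 in ESC-PGCLCs, 933 and 814 in pESC-PGCLCs and 582 and 450.2 in PGCs. Its neighbour Hba-a2, the second copy of the adult alpha gene, was at 4.73 and 6.26 TPM in ESC-PGCLCs, 48.1 and 37.3 in pESC-PGCLCs and 39.0 and 20.9 in PGCs. The level of Hba-a1 was 14.9 to 21.8 times that of Hba-a2 within a library, a ratio that the shared sequence leaves uncertain.

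By TPM the adult beta-like genes were low beside Hba-a1 and Hba-x, while Hbb-bs lay above Hba-a2 in all 6 germ cell libraries. Per stretch shared with no other gene, Hba-a2 lay above Hbb-bs in both pESC-PGCLC libraries and PGC replicate 1. Counted this way, Hbb-bs also lay close to Hba-x in ESC-PGCLCs, and above it in replicate 2. Hbb-bs was at 25.5 and 29.1 TPM in ESC-PGCLCs, 87.0 and 72.5 in pESC-PGCLCs and 74.9 and 84.5 in PGCs. It had 0 reads in each of the 4 stem cell libraries, which allows up to 0.329 to 0.451 TPM by the floor of 3 reads (counting error only). Hbb-bt was at 0 to 0.164 TPM in stem cells, 8.97 and 11.5 in ESC-PGCLCs, 29.4 and 31.6 in pESC-PGCLCs and 39.9 and 34.2 in PGCs. For both genes ESC-PGCLCs lay below the other germ cells, and for Hbb-bt alone of the 7 both PGC libraries lay above both pESC-PGCLC libraries.

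**Figure D1:**
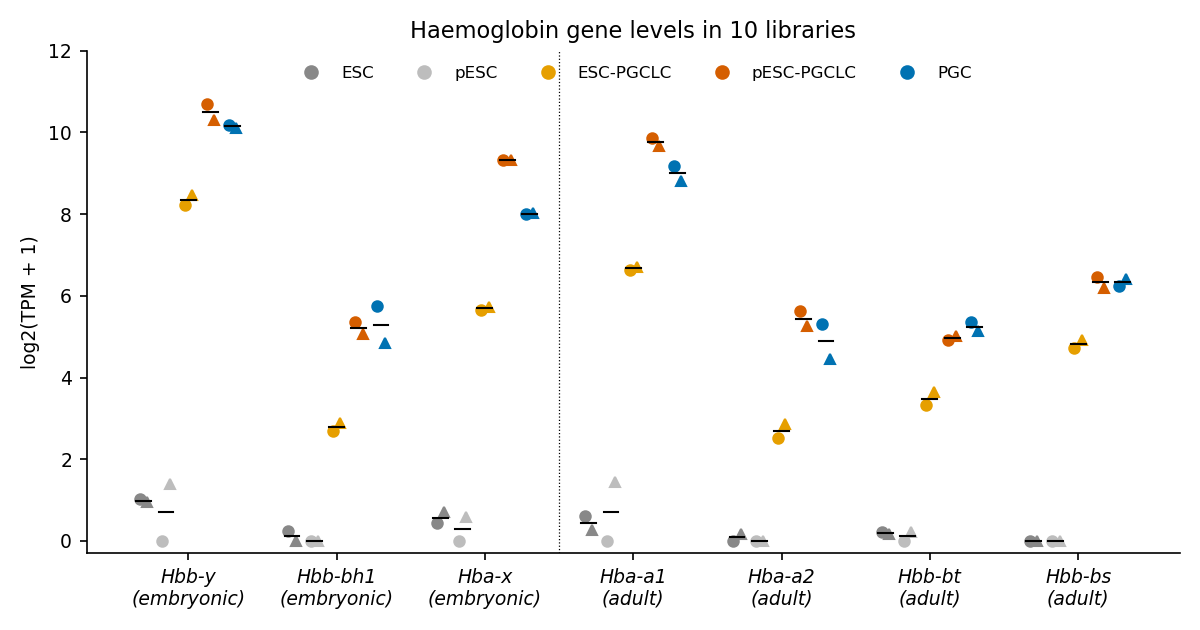
Level of each of the 7 haemoglobin genes as log2(TPM + 1), with a circle for replicate 1, a triangle for replicate 2 and a black bar for the mean of each group (n = 2). Stem cell libraries sit at or near 0, ESC-PGCLCs are the lowest germ cell group for every gene, and Hbb-y is the highest gene by TPM.

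Set against ESC-PGCLCs, all 7 members were higher in both pESC-PGCLC libraries. The share of all tested genes whose libraries did not overlap in that direction was 41.8%, so the count by itself says little, and the sizes of the differences are what sets the members apart from each other. The ratio of mean TPM was 12.6 for Hba-x, 8.66 for Hba-a1 and 7.77 for Hba-a2. It was 6.10 for Hbb-bh1 and 4.50 for Hbb-y, and 2.97 for Hbb-bt and 2.92 for Hbb-bs. The alpha-like genes thus held the 3 highest ratios, but the ranges over pairs of libraries overlapped between Hba-a2 (5.95 to 10.2) and Hbb-bh1 (5.06 to 7.33). The range over pairs of libraries was 12.3 to 12.9 for Hba-x and 2.49 to 3.42 for Hbb-bs. Between the sums, the embryonic members were 5.59 times and the adult members 7.13 times as high, with ranges over pairs of 4.73 to 6.59 and 6.34 to 8.01 that overlap. On the log2 scale the median difference was 2.42 for the members and 0.12 for all tested genes. Their levels chose the members, so these medians are a description and no support.

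PGCs also lay above ESC-PGCLCs for all 7, where the share over all genes was 50%. The ratios of mean TPM ran from 2.92 for Hbb-bs to 6.77 for Hbb-bh1, and were 3.47 for Hbb-y, 5.08 for Hba-x and 5.12 for Hba-a1. This comparison uses the same ESC-PGCLC libraries as the one before it. Between PGCs and pESC-PGCLCs, Hba-x was at 0.404 of the pESC-PGCLC level, Hba-a1 at 0.591 and Hbb-y at 0.771, and these 3 were lower in both PGC libraries, against 16.6% of all genes. Hbb-bt was higher at 1.21 times, against 37.4% of all genes, and Hbb-bh1, Hba-a2 and Hbb-bs overlapped.

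**Figure D2:**
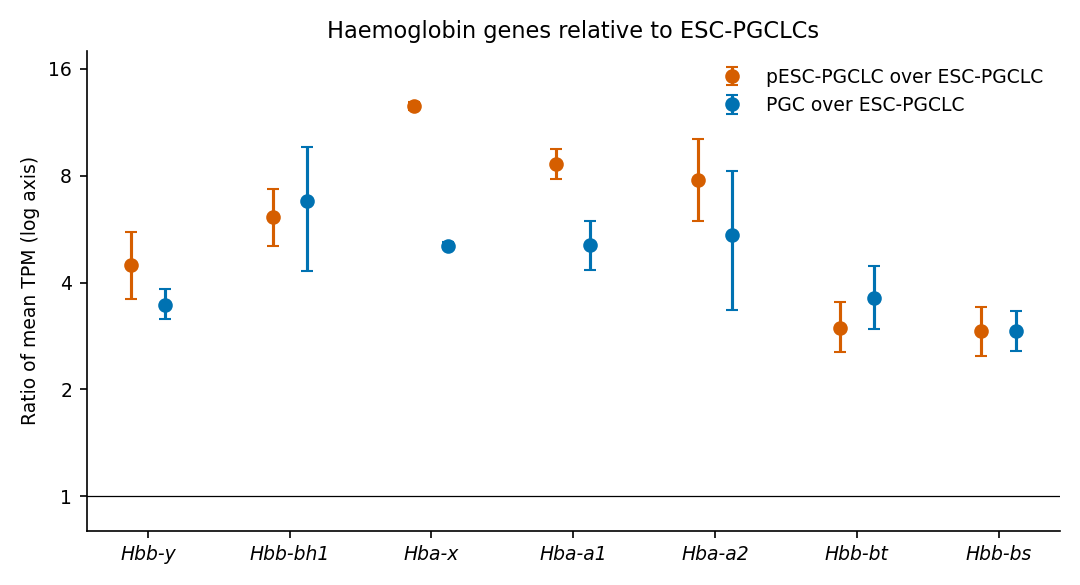
Ratio of the mean TPM of pESC-PGCLCs and of PGCs to that of ESC-PGCLCs for each haemoglobin gene on a log axis, with bars from the lowest to the highest ratio over pairs of libraries. All points lie above 1, and Hba-x in pESC-PGCLCs is the highest at 12.6.

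Embryonic members made up most of the globin TPM in every germ cell library. Their share was 72.2% and 73.2% in ESC-PGCLCs, 68.1% and 67.1% in pESC-PGCLCs and 66.5% and 70.3% in PGCs. ESC-PGCLCs lay above the other groups by a few percentage points, and pESC-PGCLCs fell within the range of PGCs. Counted as reads, the embryonic share was 68.9% (95% Wilson interval 66.6% to 71.0%) in the first ESC-PGCLC library and 65.1% (64.5% to 65.8%) in the second pESC-PGCLC library. Divided by the number of stretches that a gene shares with no other, the share was 54.4% and 55.7% in ESC-PGCLCs, 48.5% and 47.3% in pESC-PGCLCs and 47.0% and 51.9% in PGCs. Counted this way, Hbb-y held 31.9% to 48.3% and Hba-a1 31.1% to 44.5%, so both the majority of embryonic globin and the order of these genes depend on how reads that fit both adult copies were counted.

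The embryonic share differed between the chains. Among beta-like genes Hbb-y and Hbb-bh1 held 89.8% to 93.6%, whereas Hba-x held 29.3% to 42.9% of the alpha-like TPM. Alpha-like over beta-like TPM was 0.447 and 0.405 in ESC-PGCLCs, 0.888 and 1.06 in pESC-PGCLCs and 0.665 and 0.579 in PGCs. These ratios did not overlap between the 3 groups. The ratios and the alpha-like share of Hba-x depend on how reads that fit both adult copies were counted. Per unshared stretch Hba-x held 6.47% to 14.6% of globin and Hba-a1 31.1% to 44.5%. By TPM they held 9.23% to 22.1% and 18.5% to 28.0%. Hbb-y held 61.0% and 62.8% of globin TPM in ESC-PGCLCs and 48.4% and 43.9% in pESC-PGCLCs. Hba-x held 10.1% and 9.23% in ESC-PGCLCs and 18.5% and 22.1% in pESC-PGCLCs. Over the 6 germ cell libraries the levels of any pair of members correlated at r = 0.867 to 0.990, a description over 3 pairs of replicates that share library and depth.

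**Figure D3:**
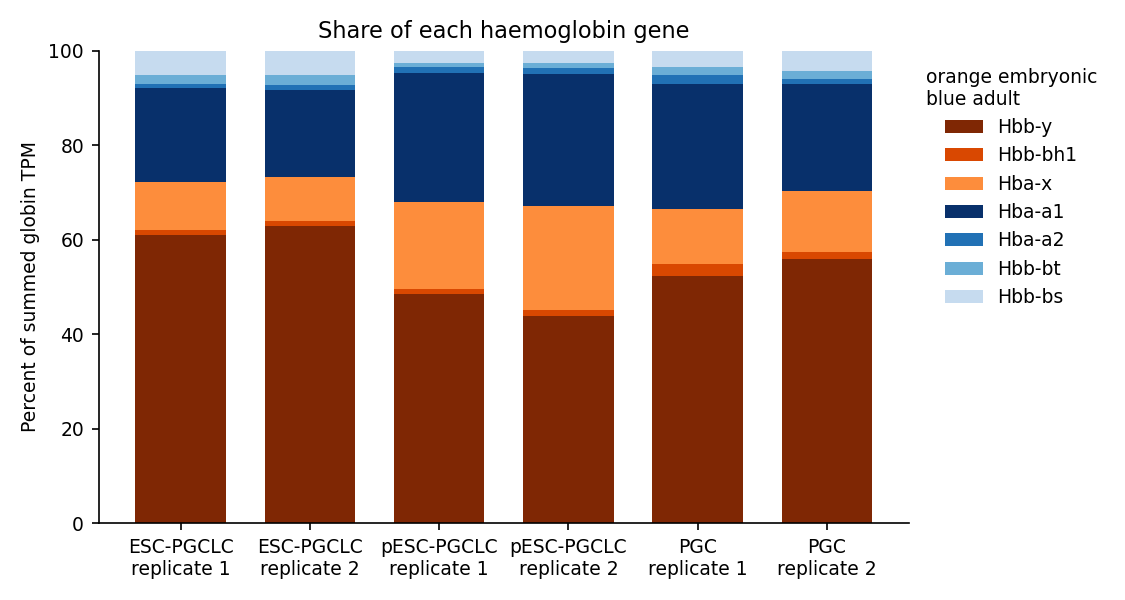
Percent of the summed globin TPM held by each haemoglobin gene in the 6 germ cell libraries, with embryonic genes in orange shades and adult genes in blue shades. By TPM Hbb-y takes 43.9% to 62.8% and Hba-a1 18.5% to 28.0% (31.9% to 48.3% and 31.1% to 44.5% per unshared stretch), and Hba-x takes its largest shares in pESC-PGCLCs.

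The other globin genes and genes listed as neighbours of the alpha cluster were looked at to see how far the signal reached. Hbb-bh0, an embryonic beta-like pseudogene between Hbb-y and Hbb-bh1, had 0 reads in stem cells, 2 and 0 in ESC-PGCLCs, 20 and 20 in pESC-PGCLCs and 13 and 23 in PGCs. It was called higher in pESC-PGCLCs (log2 difference 3.15 ± 0.56, limma adjusted p = 0.00541) and in PGCs (3.18 ± 0.56, limma adjusted p = 0.00551) than in ESC-PGCLCs, on an exon length of 129 bases. Hbb-bh2, Hbq1a, Hbq1b and Hba-ps4 stayed at or under 0.754 TPM in every library. Mb, which encodes the muscle oxygen store myoglobin, fell from 2.26 and 1.64 TPM in ESCs to 0 in both ESC-PGCLC libraries (log2 difference -1.55 ± 0.16, limma adjusted p = 0.000136).

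Of 8 genes listed as neighbours of the alpha cluster, among them Nprl3, whose introns hold enhancers of the alpha-globin genes, 7 were tested. Their positions in the mouse were not checked, so some may lie elsewhere and the counts do not describe the locus. Between the kinds of PGCLC 2 were called higher and 0 lower, where 10.3% of all genes were called higher and 3.08% lower. These were Mpg, a DNA repair glycosylase, at 4.26 and 5.04 against 12.3 and 11.7 TPM (1.20 ± 0.15, limma adjusted p = 0.00128), and Snrnp25, a spliceosome component, at 127 and 119 against 259 in both (1.06 ± 0.31, limma adjusted p = 0.0421). Neither call held once libraries were centred on their median gene, with differences of 0.82 and 0.63, or with quantile normalization (0.88 and 0.76). The Snrnp25 call was also lost without a filter (1.06), with voom (0.97) and without any 1 of the PGCLC libraries. Polr3k, an RNA polymerase III subunit, was at 94.8 and 87.7 TPM in ESC-PGCLCs and 134 and 140.2 in pESC-PGCLCs and was not called.

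Beside the haemoglobin genes, 6 genes that define red cell precursors were looked at, and each was at or under 1.15 TPM in every library. Gata1, Klf1, Tal1, Alas2, Slc4a1 (band 3) and Epor (the erythropoietin receptor) summed to 0.731 to 1.89 TPM in stem cells, 0.629 and 0.783 in ESC-PGCLCs, 2.32 and 1.61 in pESC-PGCLCs and 2.38 and 2.45 in PGCs. The highest value of any of them in a germ cell library was 1.15 TPM, that of Klf1 in pESC-PGCLC replicate 1, and Klf1 was at 1.14 TPM in ESC replicate 1. Globin TPM in germ cells was 718 to 1804 times the sum of these 6 genes. No red cell library was measured here to compare this ratio with. Alas2, the red cell form of the first haem enzyme, was at 0.0875 and 0 TPM in ESC-PGCLCs, 0.586 and 0.442 in pESC-PGCLCs and 0.783 and 0.921 in PGCs. Tfrc, the transferrin receptor that dividing cells in general use to take up iron, was at 35.1 to 60.0 TPM in all 10 libraries. Ahsp was not analysed here. In germ cell libraries the sum of the 6 genes rests on 6 to 67 reads. The signal is called here by its genes, as haemoglobin RNA, and whether it came from red cells was not tested.

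**Figure D4:**
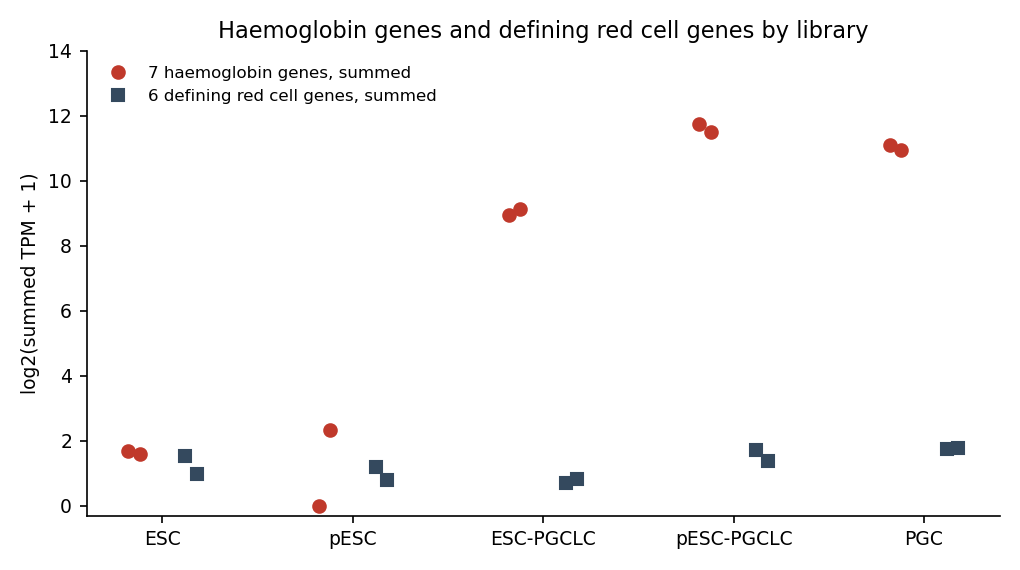
Summed level of the 7 haemoglobin genes (circles) and of 6 genes that define red cell precursors (squares: Gata1, Klf1, Tal1, Alas2, Slc4a1 and Epor) in each library, as log2(summed TPM + 1). The circles lie far above the squares in all 6 germ cell libraries, where the squares stay at 0.629 to 2.45 TPM.

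A wider set of 69 erythroid genes in 3 groups (transcription factors, haem synthesis and iron, red cell membrane and enzymes) was compared between the groups, and 60 of these were tested. Between pESCs and ESCs 0 were called by limma in either direction, where 0.165% of all genes were called higher and 0.616% lower. At an unadjusted p under 0.05 there were 14, and voom on recovered reads called 2, both lower. Over all genes 45 were higher and 168 lower, and 123 and 53 after median centring.

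From ESCs to ESC-PGCLCs 9 erythroid genes rose and 12 fell, against 15.3% and 14.5% of all genes. Among transcription factors 4 rose and 1 fell. Gata2, a factor of early blood progenitors that germ cells also use, rose from 0.0804 and 0.0935 to 12.6 and 13.5 TPM (3.69 ± 0.16, limma adjusted p = 3.21e-06). Lmo2 and Ssbp3, parts of the complex that bridges GATA factors, rose by 1.57 and 1.54, and Nfe2, a factor of late red cells, fell by 1.13. Haem and iron genes split, with 4 up and 6 down of 20. Flvcr1, a haem exporter, and Cpox and Fech, late enzymes of haem synthesis, rose by 1.51, 1.30 and 1.28. Ftl1, the ferritin light chain, fell from 9126 and 8383 to 195 and 199.7 TPM (-5.46 ± 0.18, limma adjusted p = 1.42e-06), and Urod, another haem enzyme, fell by 3.84. Hmox1, which breaks haem down, fell by 3.16. Ferritin genes have pseudogene copies, so the level of Ftl1 is uncertain. Of 21 red cell membrane and enzyme genes 1 rose (Tmod1, 1.12) and 5 fell, led by Blvrb (a biliverdin reductase, -4.44), Slc2a1 (a glucose transporter, -3.37) and Tspo2 (-2.09).

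From pESCs to pESC-PGCLCs 18 erythroid genes rose and 7 fell, against 20.8% and 6.8% of all genes. Gata2 rose by 3.29, Ssbp3 by 2.54 and Lmo2 by 1.62, and 0 transcription factors fell. Alad, the second enzyme of haem synthesis, rose from 15.9 and 16.0 to 105 and 123 TPM (2.76 ± 0.16, limma adjusted p = 1.3e-05), and Hmox2 and Fech rose by 2.16 and 1.74. Ftl1, Urod and Tmem14c, a transporter of haem precursors in mitochondria, fell by 1.95, 1.02 and 1.88. Among red cell genes Mgst3, Bpgm and Icam4 rose by 1.42, 1.42 and 1.39, while Blvrb, Tspo2 and Slc2a1 fell by 2.85, 2.00 and 1.81. The erythroid split turned to 8 higher and 11 lower after median centring and to 9 and 11 after quantile normalization. Of the 25 calls, 15 held after median centring, which lowered the median of all genes by 0.20 and turned the split over all genes from 5681 higher and 1854 lower to 2992 and 3415. Bpgm, Icam4 and Mgst3 were among the calls lost.

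Between pESC-PGCLCs and ESC-PGCLCs, where the haemoglobin genes differed by 2.92 to 12.6 times, 11 erythroid genes were called higher and 0 lower, against 10.3% and 3.08% of all genes. None of the 19 transcription factors tested was called by limma, and 7 of 20 haem and iron genes and 4 of 21 red cell genes were. Of the transcription factors 5 had an unadjusted p under 0.05, and voom called 1 higher. Ftl1 was at 195 and 199.7 TPM in ESC-PGCLCs and 1808 and 1742 in pESC-PGCLCs (3.16 ± 0.18, limma adjusted p = 9.02e-05). Urod was at 2.92 and 4.17 against 23.7 and 21.2 (2.38 ± 0.20, limma adjusted p = 0.00024), and Alad at 22.7 and 22.5 against 105 and 123 (2.28 ± 0.16, limma adjusted p = 0.000142). All 3 lay apart between the groups by more than the spread of the replicates. Icam4, an adhesion protein of red cells, was higher by 1.86, Bpgm, which makes the regulator of haemoglobin's oxygen affinity, by 1.48, and Mgst3 by 1.45. After median centring 8 of the 11 remained called, all but Blvrb, Fth1 and Hmox1, with 1 erythroid gene called lower, and the split over all genes went from 2812 higher and 839 lower to 1546 and 1437.

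**Figure D5:**
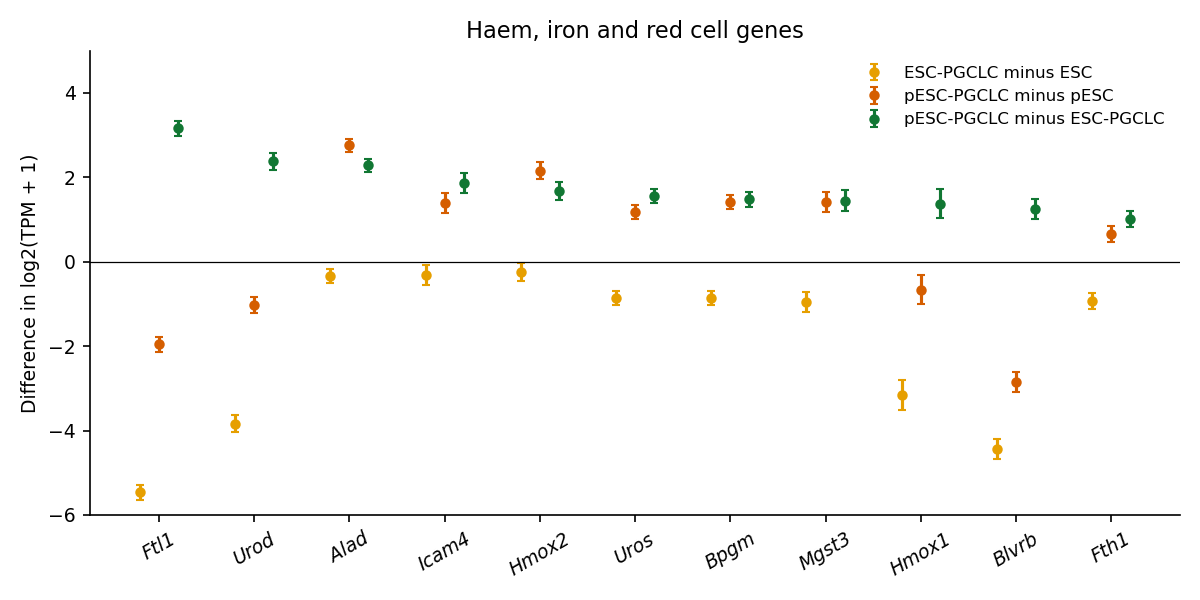
Difference in log2(TPM + 1), with the standard error from limma as bars, of the 11 haem, iron and red cell genes called higher in pESC-PGCLCs than in ESC-PGCLCs, in that comparison and from each kind of stem cell to its PGCLCs. Ftl1, Urod, Hmox1 and Blvrb lie below 0 from stem cells to PGCLCs in both origins, and the comparison of the PGCLCs lies above 0 for all 11.

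PGCs had 8 erythroid genes called higher than in ESC-PGCLCs and 0 lower, against 12% and 1.88% of all genes. They were led by Ftl1 (2.27), Hmox1 (1.90) and Alad (1.64) among haem and iron genes and by Icam4 (1.68) and Bpgm (1.15) among red cell genes, with Ssbp3 (1.12) as the single transcription factor. After median centring or quantile normalization 4 of the 8 remained, and centring turned the split over all genes from 3260 higher and 512 lower to 782 and 1170. Against pESC-PGCLCs, Gata2 was called higher in PGCs (1.28 ± 0.16, limma adjusted p = 0.0132) and Urod lower (-1.55 ± 0.20, limma adjusted p = 0.0132), where 2.07% and 1.6% of all genes were called. Over all genes the split was 564 higher and 436 lower, and 226 and 649 after median centring. Both calls were lost without PGC replicate 1, pESC-PGCLC replicate 1 or pESC-PGCLC replicate 2.

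Markers of gonadal somatic cells and platelets were higher in germ cells than in stem cells, as the haemoglobin genes were. The summed markers of leukocytes, led there by Cd68, and of endothelium, led by Ramp2, were highest in ESCs. The part of any of these markers in the result was not tested. The 17 gonadal somatic genes measured summed to 2.83 to 6.53 TPM in stem cells, 50.6 and 55.6 in ESC-PGCLCs, 100.0 and 102 in pESC-PGCLCs and 174 and 188 in PGCs, so PGCs were highest in these and pESC-PGCLCs highest in haemoglobin. Led by Kitl, the ligand of KIT, and Fst, an activin antagonist, 8 of the 17 had a group mean of at least 1 TPM in ESC-PGCLCs, 12 in pESC-PGCLCs and 14 in PGCs. Between the kinds of PGCLC 4 of 17 were called higher, against 10.3% of all genes, with Rspo1 (1.84 ± 0.24, limma adjusted p = 0.00138) and Gata4 (1.50 ± 0.22, limma adjusted p = 0.00244) the largest, and 2 of the 17 were called after median centring, after quantile normalization or without ESC-PGCLC replicate 1.

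The 12 platelet genes summed to 1.84 to 2.49 TPM in stem cells and 8.48 to 18.2 in germ cells. Pf4, a platelet chemokine, led in both kinds of PGCLC and Gp1bb led in PGCs. Pf4 was at 2.17 to 10.5 TPM in germ cells, with means of 1.89 in ESCs and 1.75 in pESCs. It was called in neither step from stem cells to PGCLCs, whereas Gp1bb was called higher in both. Ppbp, another platelet chemokine, was at 0.194 and 0 TPM in ESC-PGCLCs, 2.39 and 3.83 in pESC-PGCLCs and 0 and 1.23 in PGCs, and was 1 of 9 tested platelet genes called higher in pESC-PGCLCs than in ESC-PGCLCs, a share near the 10.3% of all genes. The 19 leukocyte genes summed to 49.5 to 88.0 TPM in stem cells, 11.6 to 17.6 in ESC-PGCLCs and 23.9 to 26.6 in the other germ cells, with Ptprc, which defines leukocytes, at 0 to 0.103. Of these, 4 were called higher in pESC-PGCLCs and 1 lower, against 10.3% and 3.08% of all genes. The higher ones were led by Fcer1g (2.18 ± 0.23, limma adjusted p = 0.000569) and Cd68 (1.47 ± 0.23, limma adjusted p = 0.00293), and the lower one was Mpo (-1.90 ± 0.29, limma adjusted p = 0.00261). Cd68 and Laptm5 were highest in stem cells, and Cd68, at a mean of 75.0 TPM in ESCs, led the sum there. Other leukocyte genes rose. From ESCs to ESC-PGCLCs 2 of the 19 were called higher and 3 lower, against 15.3% and 14.5% of all genes. From pESCs to pESC-PGCLCs 4 were called higher and 2 lower, against 20.8% and 6.8%.

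The 18 endothelial genes summed to 73.0 to 110.5 TPM in stem cells and 19.3 to 73.7 in germ cells, mostly from Ramp2, at 8.22 and 9.53 TPM in ESC-PGCLCs, 58.6 and 54.9 in pESC-PGCLCs, 39.1 and 28.6 in PGCs and 58.8 to 91.2 in stem cells. Ramp2 was the only 1 of 17 tested called higher in pESC-PGCLCs (2.55 ± 0.18, limma adjusted p = 0.000147), against 10.3% of all genes, and the endothelial cadherin Cdh5 was at 0.329 to 1.08 TPM in germ cells. Pecam1, which germ cells also make, was at 6.28 to 22.4 TPM there. Of 14 tested genes of nascent mesoderm, the layer from which blood arises, 0 were called by limma or voom between the kinds of PGCLC, and 5 had an unadjusted p under 0.05. Lhx1 was the highest of them in each germ cell group and was at 7.92 ± 0.112 TPM in ESC-PGCLCs and 4.65 ± 1.01 in pESC-PGCLCs (mean ± SD, n = 2 each).

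The genes whose pattern over the 10 libraries was most like that of the haemoglobin genes were in none of the gene lists used here. Among 11179 candidates with a group mean of at least 5 TPM, the 10 nearest to the embryonic sum were Lonrf2, Cthrc1, Figla, Gm7993, Fam221a, Scaper, Pla2g12a, Zglp1, Ssbp2 and Gm16794, with Pearson's r of 0.994 to 0.997. The 10 nearest to the adult sum were Cthrc1, Fkbp6, Plcg2, Hmgn3, Pla2g12a, BC049730, Ins2, Figla, Lysmd2 and Araf. Figla, a transcription factor of oocytes, was at 0 to 0.201 TPM in stem cells and 8.55 to 20.5 in germ cells. Zglp1, a factor that starts the oogenic programme, was at or under 1.08 TPM in stem cells and at 45.4 to 162 in germ cells. These correlations rest mostly on the split between stem cells and germ cells, and over the 6 germ cell libraries r was 0.900 for Gm16794 and 0.993 for Pla2g12a against the embryonic sum. The sums of embryonic and adult members correlated with each other at r = 0.998 over the 10 libraries.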

How the data were processed

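RNA-seq of 10 mouse libraries in 5 groups of 2, called biological replicates by the study, was used. Clean reads were aligned by the authors to mm10 with Hisat2 and counted with Feature-counts, and the submitters' processing notes also name Bowtie2, RSEM and DESeq2 (R 3.4.2). The deposited values are TPM for 36066 genes, as the authors made them, without other normalization. The paper and the labels differ on library preparation and on the step to epiblast-like cells, and times and doses printed are those of the labels.

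TPM times GENCODE M21 exon length gave whole reads (within 0.05) for 95.7% to 96.4% of values under 300 reads. Totals were 6779837 to 18572894 reads, and floors of 3 reads and Wilson intervals cover counting error only. Genes at 0.1 TPM or more in 2 libraries (27259) were fitted as log2(TPM + 1) with limma 3.58.1 in R 4.3.3, as 5 group means (5 residual and 2.81 prior degrees of freedom, variances following the mean). A fold on this scale understates changes of low genes. Limma was also run on simulated data with 200 changed genes. These are fewer than were called between the kinds of PGCLC, so that run does not check those calls. Tables and figures used Python 3.11.15, pandas 2.3.3 and matplotlib 3.10.9.

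The members and all gene lists were chosen with earlier results of these data known, so they are not independent evidence. Some list members are not reported here. Named are the 7 members, 7 always-named red cell genes, up to 3 called genes each way per erythroid group and comparison, in other lists the 2 highest and up to 2 called each way between the kinds of PGCLC, and the 10 genes nearest in pattern to each sum. Hbb-bh2, Hbq1a, Hbq1b, Hba-ps4, Ptprc, Cdh5, Nprl3, the remaining genes of the plot of haem, iron and red cell genes and those of the closing section were named after their values were seen. Also tried were quantile normalization, centring on the median of 9024 genes, a replicate block, voom on recovered reads, shares of reads, leaving out each library, filtering at 1 TPM or not at all, and adding 0.1 in place of 1 before the log. Libraries without a second of their group were taken to vary like the other groups.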

Additional observations from a re-analysis of the deposited data

Results flagged for a closer look

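The change from stem cells to PGCLCs differed between origins for 16 of 60 tested erythroid genes, by a limma test of that difference added after the data were seen (adjusted p under 0.05 over 27259 genes and a difference of at least 1 on the log2 scale). Over all genes 5197, or 19.1%, passed in either direction. In all 16 the change was higher in the pESC origin, but the share of all genes higher there was not taken. Between the kinds of PGCLC all genes leaned the same way, with 2812 called higher and 839 lower in pESC-PGCLCs. After median centring these were 1546 and 1437, and the difference between origins was not recomputed with centring. For haem and iron genes the difference was 3.51 for Ftl1, 3.10 for Alad, 2.81 for Urod, 2.50 for Hmox1, 2.41 for Hmox2, 2.04 for Uros, 1.81 for Slc25a38, 1.59 for Fth1 and 1.26 for Alas1. For red cell genes it was 2.37 for Mgst3, 2.27 for Bpgm, 1.71 for Icam4, 1.59 for Blvrb, 1.56 for Slc2a1, 1.52 for Car2 and 1.03 for Rhd. For Alad the log2 difference between PGCLCs and stem cells was 2.76 in the pESC origin and -0.34 in the ESC origin, and for Ftl1 it was -1.95 and -5.46. These differences share the PGCLC libraries in which the haemoglobin genes differ, and none involves a transcription factor.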

How the results depend on the processing

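No called result reversed among those recomputed. These were the calls of the erythroid and gonadal lists, the genes listed as alpha cluster neighbours and Hbb-bh0. Calls of Mb, of the endothelial, platelet and leukocyte genes and of the differences between origins were not recomputed. Hbb-bh1 and Hbb-bs, which overlapped between PGCs and pESC-PGCLCs, took either sign there when 1 library was left out. The erythroid count of 0 between pESCs and ESCs became 1 with a filter of 1 TPM and 2 with voom, and 0 to 2 when 1 library was left out, the 2 without pESC replicate 2. From ESCs to ESC-PGCLCs, 21 became 34 with a pseudocount of 0.1 and 38 with voom (20 to 23 without 1 library), and from pESCs to pESC-PGCLCs 25 became 40 with voom (24 to 25), and its split of 18 higher and 7 lower turned to 8 and 11 with centring and 9 and 11 with quantile normalization. Between the kinds of PGCLC 11 became 17 with a pseudocount of 0.1 (9 to 11). For PGCs against ESC-PGCLCs 8 became 19 with a pseudocount of 0.1, 16 with voom and 4 with quantile normalization or median centring (8 to 12). For PGCs against pESC-PGCLCs 2 became 1 with a pseudocount of 0.1, 4 with centring and 7 with voom (0 to 4: 0 without either pESC-PGCLC library, 1 without PGC replicate 1 and 4 without PGC replicate 2). Centring lowered the log2 difference of summed globin TPM from 2.58 to 2.14 for pESC-PGCLCs and from 1.99 to 1.34 for PGCs, each against ESC-PGCLCs, and from -0.59 to -0.80 between PGCs and pESC-PGCLCs. Without 1 library these ran from 2.46 to 2.71, 1.89 to 2.08 and -0.72 to -0.47, and against stem cells from 7.30 to 7.49 (ESC origin) and 9.30 to 11.6 (pESC origin). The embryonic percent of globin TPM was 72.7, 67.6 and 68.4 in ESC-PGCLCs, pESC-PGCLCs and PGCs, 69.4, 65.4 and 65.2 as reads, 55.1, 47.9 and 49.4 per unshared stretch, and 66.8 in pESC-PGCLCs after quantile normalization. Without 1 library it ran from 72.2 to 73.2, 67.1 to 68.1 and 66.5 to 70.3. The cause of these shifts was not tested.

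Over all genes, calls between PGCs and ESC-PGCLCs went from 3772 to 6140 with a pseudocount of 0.1, 1906 with quantile normalization and 1952 with centring, and from 213 to between 78 and 459 between pESCs and ESCs. Without 1 library the latter ran from 30 (without ESC replicate 1) to 953 (without pESC replicate 2), and the count for PGCs against pESC-PGCLCs ran from 34 (without pESC-PGCLC replicate 2) to 1966 (without PGC replicate 2). With voom they went from 8122 to 12295 (ESC-PGCLCs against ESCs), 7535 to 11315 (pESC-PGCLCs against pESCs) and 1000 to 1956 (PGCs against pESC-PGCLCs). Gonadal somatic calls went from 7 to 14 from ESCs to ESC-PGCLCs with voom or a pseudocount of 0.1, and from 10 to 6 for PGCs against ESC-PGCLCs with centring.

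Replicate numbers recur across groups, but deviations of same-numbered libraries correlated at -0.0507 to 0.0449, so no deviation shared by number was seen. Whether libraries share a batch or run is not given in the sources used here, and these correlations cannot decide it. With the replicate block, the same 21, 25, 11, 8 and 2 erythroid genes remained called in the 5 comparisons with calls, the count for PGCs against ESC-PGCLCs became 9, and calls over all genes between pESCs and ESCs went from 213 to 78. With 2 libraries a group and 1608 to 1657 globin reads in ESC-PGCLCs, the depth limits Hbb-bh1 and Hba-a2, at 15 to 17 reads there, the most.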

Other observations

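Globins outside the red cell lineage and haemoglobin scavengers were also looked at, a choice made after the data were examined. Cygb, which encodes cytoglobin, was at 0 TPM in both ESC-PGCLC libraries and all stem cell libraries, 1.26 and 0.729 in pESC-PGCLCs and 0.942 and 0.807 in PGCs. It did not reach the 2-fold minimum between the kinds of PGCLC (log2 difference 0.98 ± 0.14, limma adjusted p = 0.00181). Ngb, the neuronal globin, was at 0 to 0.315 TPM in every library. Hp and Hpx, the plasma proteins that bind free haemoglobin and haem, were at 0 to 0.105 TPM in every library, and Cd163, the macrophage receptor for haptoglobin-bound haemoglobin, was at 0 to 0.106.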
